A study of Mustela putorius furo and Mus musculus with 4 samples.

Results

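Early neuronal intermediate progenitors (early IPs) were examined in the cortex of 1 wild-type ferret (Mustela putorius furo) embryo at embryonic day 39. They were selected on their measured transcripts: each was a cell with at least 750 detected genes, a transcript of EOMES, transcripts of at least 2 of the 6 neurogenic genes NEUROG1, NEUROG2, NEUROD4, GADD45G, DLL3 and INSM1, and transcripts of fewer than 3 of the 7 mitotic genes MKI67, TOP2A, CDK1, BIRC5, UBE2C, CENPF and NUSAP1. Of 23241 cells with at least 750 genes, 913 met this gate, which is 3.93% (exact Clopper-Pearson 95% interval 3.68 to 4.19).

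The series holds droplet-based single-cell RNA sequencing of ferret cortex and of embryonic mouse cortex, and the mouse cells were not used here. The ferret tissue was the dissociated cortex of both hemispheres, and the methods describe dye labeling and sorting for the mouse cells only. Transcripts were counted as unique molecular identifiers (UMIs), so that copies made by PCR count once. The ferret cells are listed under a pair of sample labels, both wild type cortex of the same stage, with no agent given.

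Intermediate progenitors arise from radial glial (RG) cells, lose contact with the ventricle and divide a limited number of times in the subventricular zone to produce pyramidal neurons. EOMES (TBR2), a T-box transcription factor, marks them. NEUROG1, NEUROG2 and NEUROD4 are proneural bHLH factors, INSM1 is a zinc-finger factor that promotes the formation of basal progenitors, GADD45G is a stress-response protein induced by proneural factors, and DLL3 is a Notch ligand that acts within its own cell. As these cells become neurons, EOMES gives way to NEUROD1, NEUROD2, NEUROD6 and the projection neuron factors.

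The barcodes carry 1 of 2 suffixes, and nothing in the labels ties a suffix to a sample. The cells are therefore 2 suffix sets of 1 embryo, with no replicate of the animal, and no test between groups was made. Set 1 held 301 early IPs among 10187 cells (2.95%) and set 2 held 612 among 13054 (4.69%). The sets stood apart in depth, with a median of 2573 UMIs in the early IPs of set 1 and 3620.5 in those of set 2 (3323 in all, against 3064 in all cells). They also stood apart in makeup, since cells with at least 4 of the inhibitory lineage genes DLX1, DLX2, DLX5, DLX6, GAD1 and GAD2 and no EOMES UMI numbered 12 in set 1 and 343 in set 2. Values are given for both sets together and, where a result turns on them, for each set. All intervals cover counting error only. Of 38 barcodes found in both sets, 0 were early IPs.

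The gate was set on measured transcripts, so the levels of its genes describe how the cells were chosen. The number of cells dropped from 2111 with an EOMES UMI to 1404 with at least 2 neurogenic genes. It dropped to 913 once cells with at least 3 mitotic genes were left out. Non-mitotic here means fewer than 3 of these genes, not none. Just inside the neurogenic limit were 380 early IPs with 2 of the 6 genes, and just outside it were 358 non-mitotic EOMES cells with 1. Among the early IPs, 268 had 3 of the 6 genes, 171 had 4, 72 had 5 and 22 had all 6. Just inside the mitotic limit were 118 early IPs with 2 mitotic genes, and just outside it were 79 cells with 3. EOMES itself was held by 1 UMI in 441 early IPs, by 2 in 236, by 3 in 130, by 4 in 48 and by 5 or more in 58. A further 2017 cells met every other condition and had no EOMES UMI. Among 359 cells with at least 4 of the inhibitory lineage genes, which should lack EOMES, 4 had an EOMES UMI (1.11%, 0.304 to 2.83, median 2929 UMIs), and 0 of these also had 2 of the 6 neurogenic genes. Of all cells with at least 750 genes, 9.08% had an EOMES UMI.

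Levels are summed UMIs of a group per 1000000 UMIs of that group (CPM). GADD45G was at 597 CPM in the early IPs (661 in set 1 and 575 in set 2) and was detected in 72.2% of them, against 10.99% of the inhibitory lineage cells. INSM1 was at 239 CPM (270 and 229) and NEUROG2 at 230 CPM (226 and 232), detected in 59.4% and 52.5%. DLL3 was at 202 CPM (168 and 214) and NEUROD4 at 182 CPM (199 and 175), detected in 53.0% and 44.6%. NEUROG1 was at 70.7 CPM (84.0 and 66.1) and was detected in 18.5%, against 0 of the inhibitory lineage cells. The gate asks for at least 2 of these genes, so each early IP held a combination by selection, and the shares of pairs describe that selection. GADD45G and INSM1 were found together in 383 early IPs (41.9%), NEUROG2 and DLL3 in 236 (25.8%), and NEUROG1 and NEUROG2 in 108 (11.8%). The commonest exact combination, NEUROG2 with GADD45G alone, held 56 cells (6.13%).

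**Figure D1:**
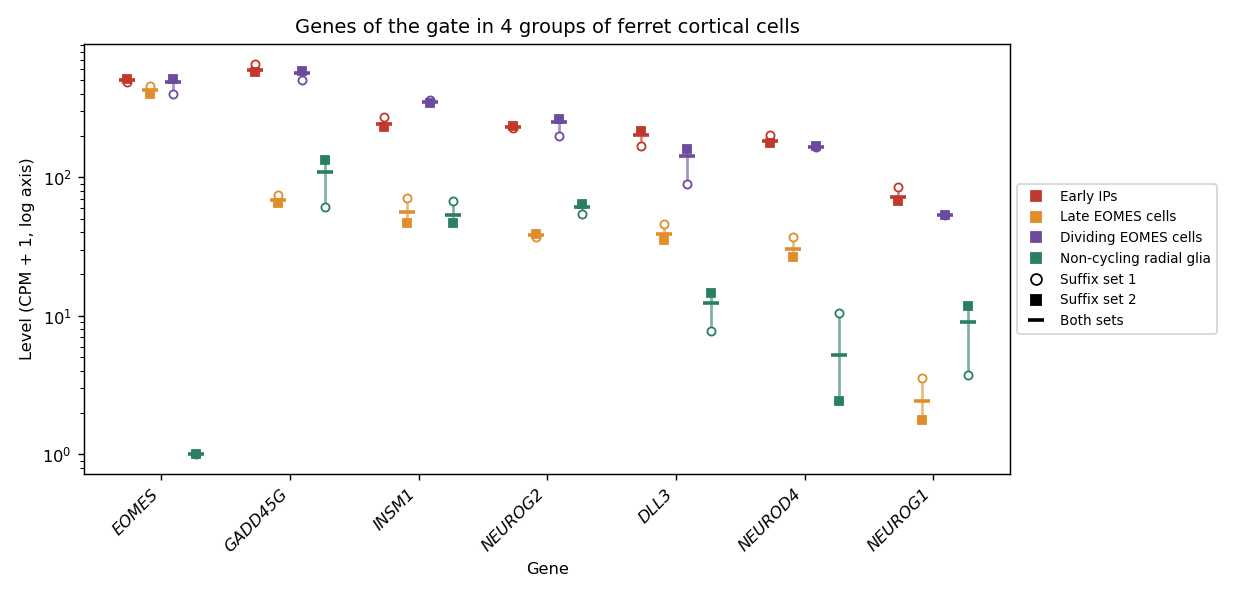
Level of EOMES and the 6 neurogenic genes (CPM + 1, log axis) in 4 groups of ferret cortical cells. Open circles are suffix set 1, filled squares set 2, and bars both sets together, which gave 597 CPM of GADD45G in early IPs and 67.5 in late EOMES cells. These genes chose the groups, so the plot is a description.

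The 3 groups set beside the early IPs came from the same table. Late EOMES cells (634 cells, median 2728.5 UMIs) had an EOMES UMI, fewer than 2 of the 6 neurogenic genes and fewer than 3 mitotic genes. Dividing EOMES cells (491 cells, 5233 UMIs) passed the EOMES and neurogenic conditions and had at least 3 mitotic genes. Non-cycling RG cells (552 cells, 3455.5 UMIs) had no EOMES UMI, at least 4 of SOX2, SOX9, HES1, HES5, SLC1A3, GLI3 and PTPRZ1, and fewer than 3 mitotic genes. They also had no UMI of EGFR, OLIG1, OLIG2 or PDGFRA, and fewer than 2 of DLX1, DLX2, DLX5, DLX6, GAD1 and GAD2. The name non-cycling rests on the mitotic genes only, and S phase genes were not part of the definition. A gene was compared if it was detected in at least 5% of either group, and genes of the gate were left out. Against RG cells, the genes that define that group were left out as well. A gene is called 2-fold higher or lower from the log2 ratio of CPM after 10 CPM was added to each side, which understates the change of low genes. Because the groups were cut from the same transcripts, these ratios describe the groups and test nothing.

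Genes of DNA replication and of the G1 to S step of the cell cycle were among those higher in early IPs than in late EOMES cells. Of 8214 genes compared, 99 were past 2-fold (1.21%), with 69 higher in the early IPs (0.84%) and 30 lower (0.365%). The balance turned in cells thinned to 2000 UMIs before the gate, where 46 were higher and 75 lower. The sign was the same in both sets for 97 of the 99, and 43 were past 2-fold in each set. Among 15 compared genes of an S phase list, 9 were at least 2-fold higher, 0 lower and 15 above 0, with a median log2 ratio of 1.11 beside 0.04 over all genes compared. PCNA, the sliding clamp of DNA polymerase, was at 141 CPM in early IPs (97.6 in set 1 and 156 in set 2) and at 40.9 in late EOMES cells (59.0 and 30.2), a log2 ratio of 1.57. Set 1 alone gave 0.64 for PCNA and set 2 gave 2.05. MCM3, a subunit of the replicative helicase, was at 25.1 CPM against 3.33, with log2 ratios of 1.21 in set 1 and 1.48 in set 2. The other 7 past 2-fold were HELLS, MCM5, MCM6, TYMS, CLSPN, MCM4 and GINS2. The summed level of the S phase list was 761 CPM in early IPs (714 and 778) and 269 in late EOMES cells (309 and 245). The early IPs of both sets were above the late EOMES cells of both sets.

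The genes furthest above late EOMES cells included further parts of the replication program. PCLAF, a PCNA-associated factor, was at 151 CPM against 30.9 (4.88 times, exact conditional interval 3.77 to 6.42), with a log2 ratio of 1.98. It was at 229 CPM in early IPs of set 1 and 124 in set 2, against 57.7 and 15.1 in late EOMES cells. E2F1, the transcription factor that drives S phase entry, was at 61.2 CPM against 10.9, with log2 ratios of 1.11 in set 1 and 2.16 in set 2. SPC24, a kinetochore subunit, DNPH1, a nucleotide-clearing hydrolase, and HMGB2, a chromatin protein, gave log2 ratios of 1.79, 1.68 and 1.53. STARD13, a GTPase-activating protein, CTHRC1, a secreted collagen-triple-helix protein, and ADGRV1, an adhesion receptor, gave 1.62, 1.57 and 1.53. CTHRC1 was the exception when at least 2 EOMES UMIs were asked of both groups, with a log2 ratio of 0.81.

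Against late EOMES cells, 0.84% of all genes compared were 2-fold higher in early IPs and 0.365% lower. Of 14 compared genes for cyclins, kinases and cell cycle exit, 5 were 2-fold higher in early IPs than in late EOMES cells and 0 lower. These were E2F1, the D cyclins CCND2 (147 CPM, 145 and 148 by set, against 46.6, 57.7 and 40.1) and CCND1 (32.8 CPM against 7.13), CCNE2, and CDK6, the kinase partner of D cyclins (219 CPM against 104.6). CDKN1C, which encodes the cyclin-dependent kinase inhibitor p57, was at 263 CPM (218 and 278) in early IPs, 205 (169 and 226) in late EOMES cells, 119 (89.5 and 129) in dividing EOMES cells and 47.5 (55.6 and 43.2) in RG cells. Early IPs of each set were above those 3 groups of the same set, with log2 ratios of 0.34, 1.08 and 2.25. Genes for D cyclins and for p57 were thus both found in the early IPs as a group. CDKN1A, which encodes p21, gave 4 UMIs in 913 early IPs.

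Neuronal genes ran lower in early IPs than in late EOMES cells without passing 2-fold in most cases. Of 16 compared neuron genes, 14 were below 0 and 1, MEF2C, was past 2-fold, with a median log2 ratio of -0.57. Over all genes compared, 1.21% passed 2-fold, with 0.365% on the lower side. STMN2, a tubulin-binding protein of growing axons, was at 1326 CPM (1048 and 1424) against 2060 (1726 and 2257). DCX, which binds microtubules in migrating neurons, was at 235 CPM against 212, and NRN1, a membrane-anchored neurite-promoting protein, at 431 against 410. Among 9 bHLH and commitment factors outside the gate, 0 passed 2-fold. NEUROD6 was at 241 CPM (231 and 245) against 491 (467 and 505), just short of 2-fold, and NEUROD2 at 164 against 276. HES6, which opposes Notch targets, was at 608 CPM against 387. NEUROD1, the bHLH factor that follows EOMES, was at 72.6 CPM (60.9 and 76.8) against 87.0 (85.9 and 87.7) and differed little between these groups. None of 16 layer and projection neuron factors passed 2-fold, and TBR1 was nearest at 12.6 CPM against 32.8. Of 19 migration and guidance genes 1, DAB1, the adaptor of Reelin signaling, was past 2-fold lower, at 76.7 CPM against 184, and 16 were below 0.

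The genes furthest below late EOMES cells were ADARB2, NRXN3, IGFBP7, GALNTL6, GRIK2, PLPPR5, GRM5, EPHA6, FGF14 and COL24A1, with log2 ratios from -1.67 to -1.16. Several of these encode glutamate receptor subunits or synaptic adhesion proteins. Set 1 alone gave values under 2-fold for ADARB2, NRXN3, GRIK2, PLPPR5, GRM5 and COL24A1, from -0.94 to -0.32. Inhibitory lineage genes also differed between these groups. ERBB4, a neuregulin receptor of interneurons chosen after its values were seen, was at 54.3 CPM in early IPs (81.9 and 44.7) and at 273 in late EOMES cells (73.1 and 391), so the groups were close in set 1 and apart in set 2. The 13 inhibitory lineage markers summed to 121 CPM in early IPs (138 and 115) and 458 in late EOMES cells (171 and 628). At least 2 of the 6 inhibitory lineage genes were found in 2 early IPs and in 15 late EOMES cells, and without these cells the log2 ratio of NRXN3 moved from -1.58 to -0.46, with GALNTL6 at -0.91 and EPHA6 at -0.99. With both sets together, the other 7 stayed past 2-fold without these cells, among them IGFBP7 at -1.29 and COL24A1 at -1.16. With at least 2 EOMES UMIs asked of both groups, 10 genes named above lost 2-fold, and NRXN3, GALNTL6 and GRM5 turned to 0.12, 0.63 and 0.03, while the S phase list had 15 of 15 compared genes above 0 with 4 past 2-fold.

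**Figure D2:**
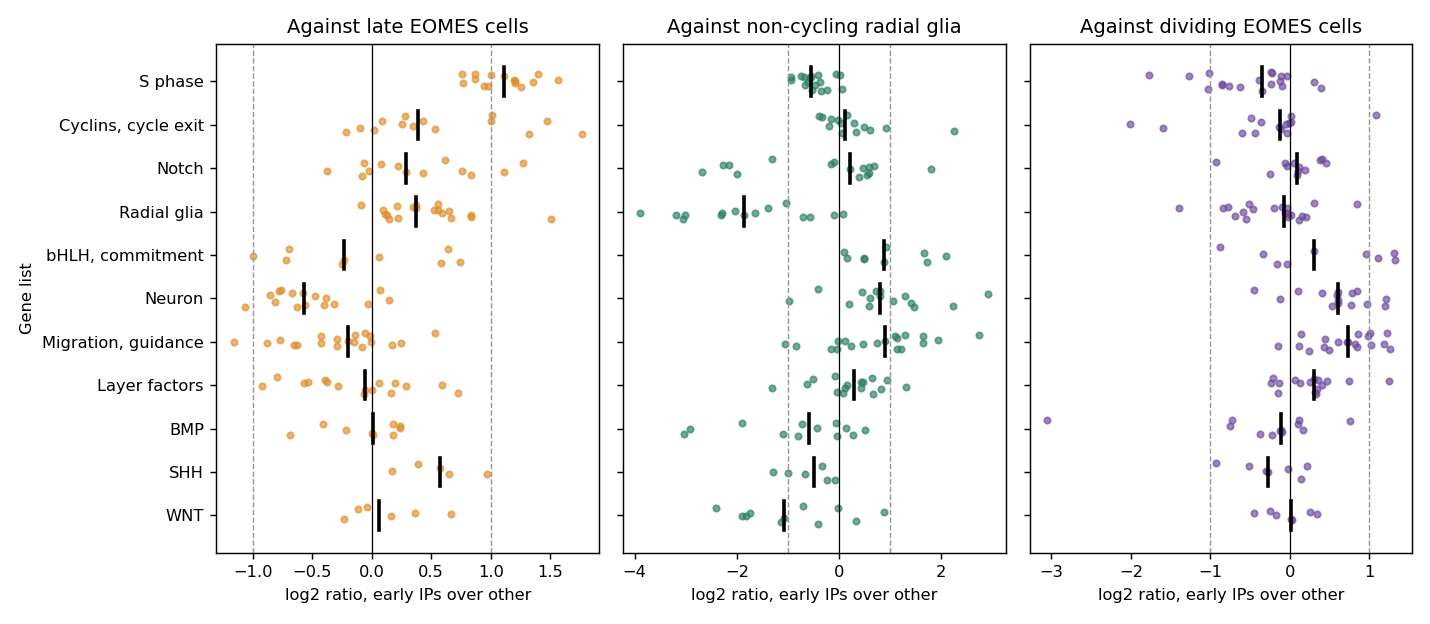
Log2 ratio of early IPs over each of 3 groups (horizontal axis) for the compared genes of 11 lists. Each point is a gene, the black bar is the median of the list, and dashed lines mark 2-fold. The S phase list lies above 0 in all 15 genes against late EOMES cells and has a median of -0.54 against RG cells.

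Against non-cycling RG cells the early IPs had lower levels of most RG genes and higher levels of some neuronal, guidance and commitment genes. Of 8931 genes compared, 795 were past 2-fold (8.9%), with 226 higher in early IPs (2.53%) and 569 lower (6.37%). All 795 had the same sign in both sets, and 552 were past 2-fold in each. Of 15 RG genes outside those that define the group, 11 were lower and 0 higher, with a median log2 ratio of -1.86 beside -0.05 over all genes. HOPX, an outer RG marker, was at 47.2 CPM (67.2 and 40.2) against 837 (884 and 813), and TNC, an extracellular matrix protein of RG cells, at 29.5 against 349. VIM, the RG intermediate filament, was at 394 CPM (321 and 420) against 1999 (1218 and 2414), between RG cells and late EOMES cells (132). FABP7 was detected in 100% of early IPs and in 71.8% of inhibitory lineage cells, so its detection does not separate cells at this depth. It was at 6188 CPM in early IPs and 22462 in RG cells. The other genes furthest below RG cells were GDPD2, ACBD7, MGAT4C, PLPP3, FAM181B, GPC5, TTYH1 and PARM1, with log2 ratios from -3.49 to -3.03.

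DCC, the netrin receptor, was furthest above RG cells. It was at 879 CPM (468 and 1024) in early IPs and 71.5 (90.8 and 61.3) in RG cells, 12.3 times (10.4 to 14.6). MYT1, a zinc-finger factor of neuronal differentiation, was at 106 CPM (72.4 and 118) against 4.70, and IGFBPL1, an IGF-binding protein of early neuronal cells, at 519 (397 and 562) against 55.0. NRN1, PLXNA2, a semaphorin co-receptor, and SRRM3, a splicing factor of neurons, gave log2 ratios of 2.93, 2.74 and 2.81. TMEM163, PARVG, NKAIN3 and EDIL3 gave 3.18, 2.83, 2.71 and 2.61. DCC and IGFBPL1 were at 718 and 394 CPM in late EOMES cells, so neither separates early IPs from them by 2-fold.

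By list, 6 of 15 neuron genes were 2-fold higher in early IPs than in RG cells and 0 lower (NRN1, DCX, STMN2, SYT1, SLC17A6 and SNAP25). Set 1 alone gave 3. Over all genes compared, 2.53% were higher than in RG cells and 6.37% lower. Of 19 migration and guidance genes, 9 were higher, with PLXNA2, EPHB1, SEMA6D and EPHA3 at the head, and 1, DAB1, was lower. Among 9 bHLH and commitment factors 3 were higher and 9 above 0. NEUROD1 was at 72.6 CPM against 9.41 in RG cells, SOX11, which activates neuronal genes, at 814 against 241, and HES6 at 608 against 186. Of 16 layer factors 1, CUX2, was higher (150 CPM against 55.0) and 1, FEZF2, was lower, and set 1 alone gave 0 higher. Of 18 S phase genes compared 0 passed 2-fold and 2 were above 0, with a summed level of 761 CPM in early IPs and 1143 in RG cells. The RG group was not cleared of S phase cells. At least 3 genes of the S phase list were found in 44.7% of its cells, so this is not a comparison with resting cells.

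Notch signaling between neighboring cells keeps RG cells undifferentiated through HES1 and HES5, and committed cells present the ligands. HES1 was at 4.10 CPM in early IPs (4.20 and 4.06), detected in 1.20%, against 153 CPM (145 and 157) in RG cells, which it helped to define, and 6.66 in late EOMES cells. HES5 was at 41.8 CPM (29.4 and 46.1) in early IPs, 19.0 (10.3 and 24.2) in late EOMES cells and 287 in RG cells. Receptors differed from each other. NOTCH2 was at 15.6 CPM (16.8 and 15.1) against 153 (111 and 176) in RG cells, and NOTCH3 at 3.55 against 55.5. NOTCH1 stayed at 92.0 CPM (106 and 87.1) in early IPs against 103 (88.1 and 111) in RG cells, and at 37.1 (47.5 and 31.0) in late EOMES cells. The Fringe glycosyltransferases, which modify the receptors, ran in opposite directions. LFNG was at 4.92 CPM against 49.4 in RG cells, and MFNG was at 34.7 CPM (26.2 and 37.6) against 2.82 (4.07 and 2.16) in RG cells and 8.56 (11.5 and 6.80) in late EOMES cells. The ligands DLL1 and JAG1 were at 23.5 and 14.2 CPM in early IPs against 10.8 and 6.12 in RG cells, both under 2-fold. In all, 1 of 15 compared Notch genes was 2-fold above RG cells (MFNG) and 5 were below (NOTCH2, NOTCH3, DTX4, LFNG and HEY1). Against late EOMES cells 2 of 13 were above (MFNG and NOTCH1) and 0 below. Over all genes compared, 2.53% were 2-fold above RG cells and 6.37% below. The same shares against late EOMES cells were 0.84% and 0.365%.

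BMP signaling acts through receptors and SMADs on ID genes, which block bHLH factors. ID1 was at 13.7 CPM in early IPs (21.0 and 11.1), detected in 3.83%, against 183 CPM (168 and 191) in RG cells and 186 (175 and 190) in dividing EOMES cells. ID1 in early IPs gave a log2 ratio of -3.05 against dividing EOMES cells, with -2.58 in set 1 and -3.25 in set 2. ID4 was at 181 CPM (181 and 182) against 1445 (1218 and 1565) in RG cells and 239 in dividing EOMES cells. BMPR1B and SMAD9 completed the 4 of 12 BMP genes that were lower than in RG cells, and 0 were higher. Against late EOMES cells 0 of 9 passed 2-fold. In the SHH list 1 of 6, BOC, was lower than in RG cells, and 0 of 5 passed against late EOMES cells. GLI3, which defines the RG group, was at 143 CPM in early IPs, 565 in RG cells and 87.0 in late EOMES cells, and GLI2 at 76.7, 98.8 and 34.2. PTCH1, a target of SHH signaling, was at 8.19 CPM against 26.3 in RG cells. Of 11 WNT genes 6 were lower than in RG cells and 0 higher, among them the receptor FZD8 (6.01 CPM against 74.8), the secreted inhibitor SFRP1 (103 against 389) and the effector TCF7L2 (7.37 against 48.5), and 0 of 6 passed against late EOMES cells. Against dividing EOMES cells 0 of 12 Notch, 0 of 7 SHH and 0 of 7 WNT genes passed 2-fold, and ID1 was the 1 of 12 BMP genes that did. Over all genes compared, 1.21% passed 2-fold against late EOMES cells and 4.78% against dividing EOMES cells, and 6.37% were lower than in RG cells. Beside these shares, a count of 0 or 1 in lists this short says little about a pathway.

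**Figure D3:**
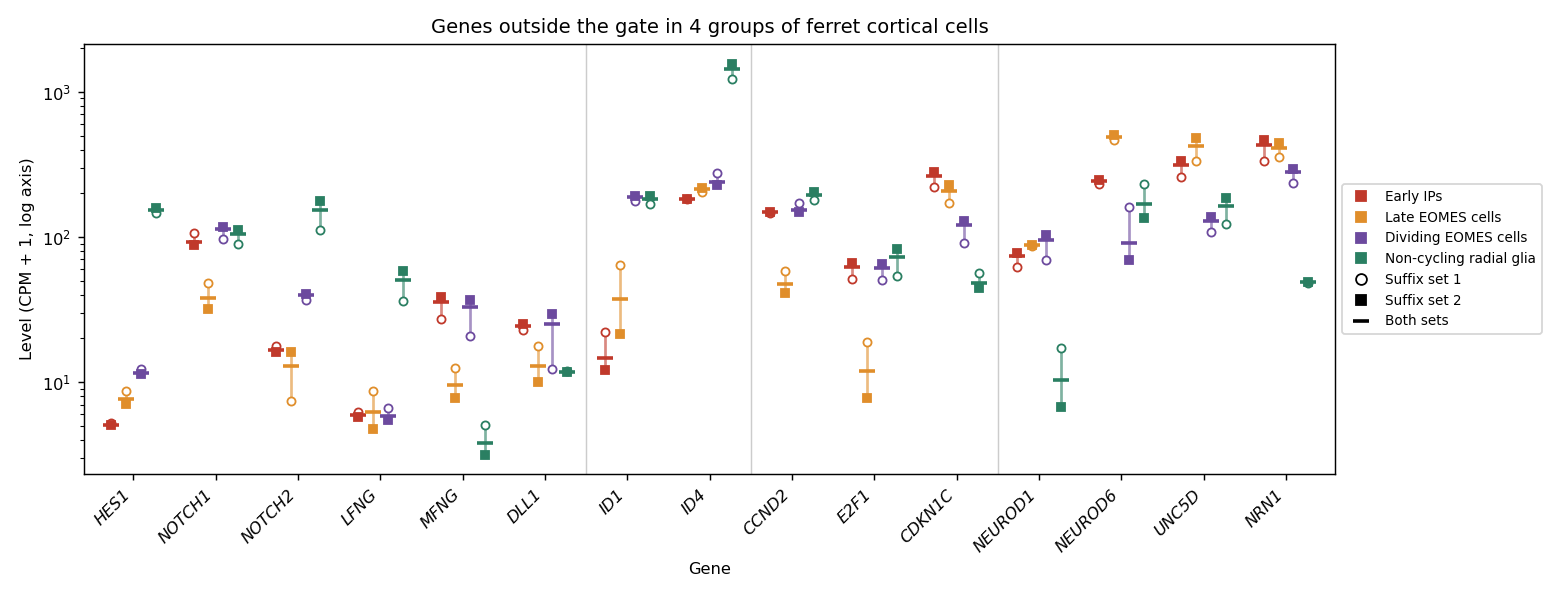
Level (CPM + 1, log axis) of Notch, BMP, cell cycle and neuronal genes, in this order from left to right, in 4 groups. Open circles are suffix set 1, filled squares set 2 and bars both sets. ID1 was at 13.7 CPM in early IPs and 186 in dividing EOMES cells, and MFNG at 34.7 in early IPs and 2.82 in RG cells.

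Dividing EOMES cells carry the same neurogenic genes, and the gate separates them from early IPs by mitotic genes only. Of 9327 genes compared, 446 were past 2-fold (4.78%), with 81 higher in early IPs (0.868%) and 365 lower (3.91%). In cells thinned before the gate 240 were higher and 382 lower. All 446 kept their sign in both sets and 300 were past 2-fold in each. The genes furthest below were further mitotic genes, which follow from the gate: CCNB1, AURKB, CCNB2, TPX2, DLGAP5, HMMR, ECT2, CENPE, ASPM and SPC25, with log2 ratios from -4.87 to -4.07. The RG factor SOX2 was at 104 CPM (80.8 and 113) in early IPs against 290 (236 and 308), the only 1 of 20 RG genes past 2-fold. CDKN2C and CDKN2D, which encode the CDK4/6 inhibitors p18 and p19, were at 22.9 and 21.3 CPM against 122 and 84.7. Of 19 S phase genes 4 were lower (RRM2, RRM1, CLSPN and FEN1). With the neurogenic limit at 3 of 6, 1 of 19 was lower.

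The genes furthest above dividing EOMES cells included TAFA1, NTM, KDM5B, MYT1L, KIF21B, HIVEP3, PARVG, SSTR2 and ARHGAP20, with log2 ratios from 1.82 to 1.34. MYT1L, a repressor of non-neuronal genes, was at 153 CPM (116 and 167) against 48.7. Set 1 alone gave values under 2-fold for NTM, MYT1L, KIF21B, HIVEP3 and ARHGAP20, from 0.94 to 0.78. Of the bHLH and commitment factors 3 of 9 were higher (NEUROD6, BHLHE22 and NEUROD2) and 0 lower, where 0.868% of all genes compared were higher and 3.91% lower. Of 19 migration and guidance genes 5 were higher (SEMA6D, UNC5D, FLRT2, PLXNA4 and UNC5C). UNC5D, a netrin receptor of the multipolar stage, was at 313 CPM (257 and 333) against 129 (107 and 135). With at least 2 EOMES UMIs asked of both groups, 1 of 19 was past 2-fold. Of 16 layer factors 1 was higher, CUX2 (150 CPM against 57.6), and set 1 alone gave 0. Of 15 neuron genes 2 were higher (MAPT and SLC17A6). The depth of the groups differed most in this comparison.

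Further genes that the study names for pyramidal neuron IPs, outside the gate, were not alike. ELAVL4 and ELAVL2, neuronal RNA-binding proteins, were at 383 and 186 CPM in early IPs, 219 and 120 in late EOMES cells and 62.1 and 51.7 in RG cells. SSTR2, a somatostatin receptor, was at 36.3 CPM (24.1 and 40.6) in early IPs, 45.7 (34.6 and 52.2) in late EOMES cells, 8.23 (2.84 and 9.94) in dividing EOMES cells and 5.65 (5.42 and 5.76) in RG cells. PAX6 was at 87.4 CPM (63.0 and 96.0), 56.1, 147 and 135 in the same order. PPP1R17, a phosphatase regulator, gave 7 UMIs in 5 early IPs (0.548%), against 0.282% of inhibitory lineage cells, too few for a difference to be detectable at this depth. PENK gave 32 UMIs in 0.876% of early IPs. In all, 3 of the 4 compared (ELAVL4, ELAVL2 and SSTR2) were 2-fold above RG cells, and 0 of 4 passed against late EOMES cells. Among all genes compared, 2.53% were 2-fold above RG cells and 1.21% passed against late EOMES cells.

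Within the non-mitotic EOMES cells, levels shifted with the number of neurogenic genes detected. The summed S phase list was at 262 CPM with 0 of the 6 genes, 274 with 1, 420 with 2, 635 with 3 and 1252 with 4 to 6. VIM was at 119, 142, 285, 333 and 571 CPM along the same steps, and CCND2 at 45.5, 47.5, 94.5, 131 and 219. Thus, with all UMIs, the early IPs with 4 to 6 neurogenic genes had the highest levels of these progenitor genes. STMN2 ran the other way, at 2289, 1888, 1633, 1394 and 929 CPM. NEUROD6 was at 606, 405, 258, 292 and 175. MFNG was at 8.87 and 8.33 CPM in the late EOMES cells with 0 and 1 gene and at 22.1, 28.9 and 53.8 in early IPs. NRN1 varied less, at 337, 465, 456, 444 and 391. Its fall at each step among the early IPs was not kept in set 1 (334, 365 and 295) or after thinning (443, 496 and 377). DCX (173, 241, 235, 240 and 231) and NEUROD1 (85.4, 88.2, 74.7, 78.9 and 64.5) had no steady order among the early IPs with all UMIs. After thinning both fell over these steps, DCX at 257, 230 and 191 and NEUROD1 at 67.5, 64.7 and 18.5.

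The steps went with depth, since median UMIs per cell were 2645, 2807, 2986, 3473 and 3970. After cells were thinned to 2000 UMIs ahead of the gate, the S phase list was at 360, 435, 876, 863 and 1049 CPM, and VIM at 221, 162, 361, 529 and 556. Over the early IP steps alone, the thinned S phase list was at 974, 953 and 875 CPM in set 1 and 838, 823 and 1123 in set 2. Depth as a part of the steps was not tested beyond this thinning. In the thinned cells STMN2 went from 1817 to 815 CPM and NEUROD6 from 394 to 49.4. The direction between the ends was the same in each set without thinning, from 299 to 1082 CPM for the S phase list in set 1 and from 241 to 1290 in set 2. How these steps relate to time in single cells was not measured.

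**Figure D4:**
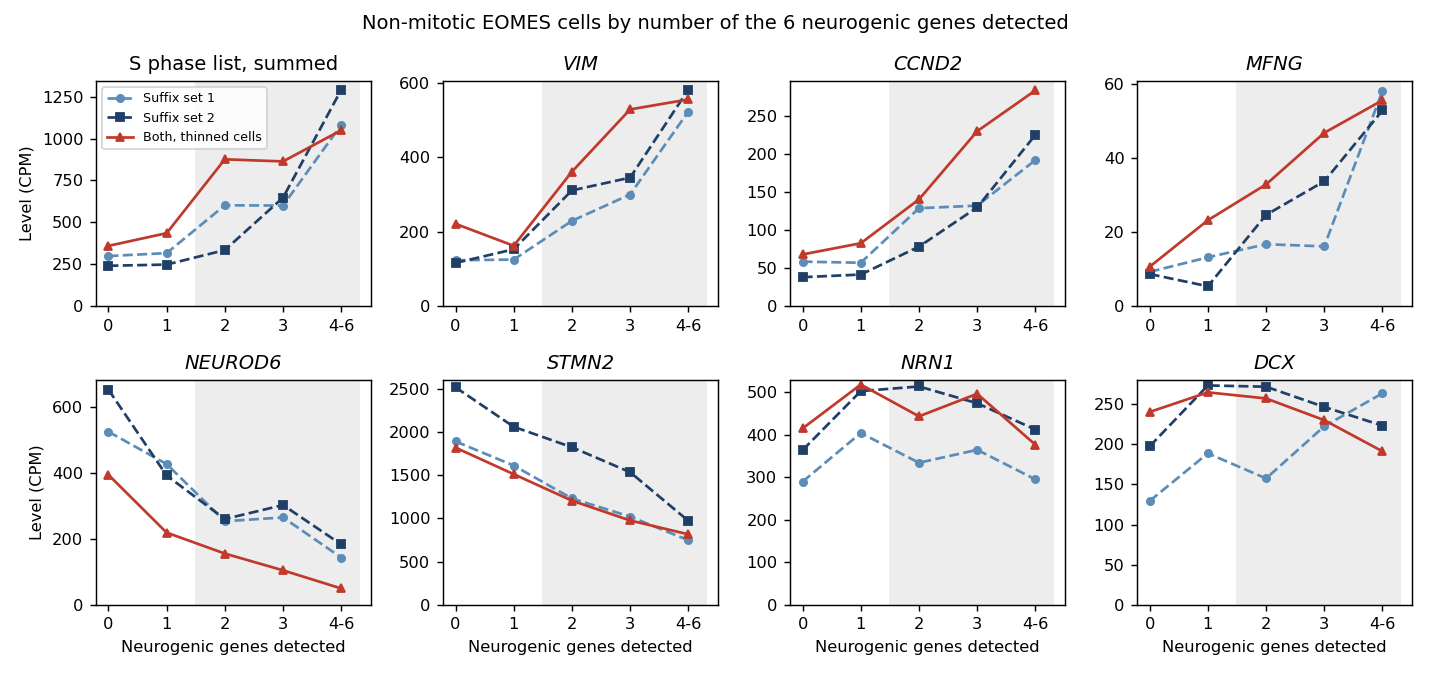
Level (CPM) of the summed S phase list and 7 genes against the number of the 6 neurogenic genes detected in non-mitotic EOMES cells. The shaded steps are the early IPs. Blue lines are the suffix sets with all UMIs and the red line is both sets thinned to 2000 UMIs per cell, in which NEUROD6 went from 394 to 49.4 CPM.

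Progenitor and neuronal genes were then counted cell by cell, at 2000 UMIs per cell, which left out 75 early IPs. At least 3 genes of the S phase list were found in 138 of 838 early IPs (16.5%, 14.0 to 19.2), against 3.52% of late EOMES cells, 34.5% of dividing EOMES cells and 33.01% of RG cells. Without thinning the share of early IPs was 24.9%. At least 1 of VIM, HES1, SOX2 and SLC1A3 was found in 44.3% of early IPs (40.9 to 47.7), 19.9% of late EOMES cells and 68.0% of dividing EOMES cells, and 54.1% of early IPs without thinning. At least 1 of NEUROD2, NEUROD6 and TBR1 was found in 36.2% of early IPs (32.9 to 39.5), 61.1% of late EOMES cells and 22.1% of dividing EOMES cells, and 48.6% of early IPs without thinning. RG cells, which should lack these neuronal genes, gave 22.004% (18.5 to 25.9), and the share in early IPs is to be read against that level.

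Pairs of marks were counted in the same thinned cells. S phase and RG genes met in 13.4% of early IPs (11.1 to 15.9), where the product of the separate shares is 7.29%. S phase and neuronal genes met in 3.10% (2.04 to 4.51), under the product of 5.95%, and RG and neuronal genes in 10.7% (8.72 to 13.0), under 16.0%. Without thinning these shares were 21.2% beside a product of 13.5%, 9.97% (8.10 to 12.10) beside 12.09%, and 22.2% (19.6 to 25.1) beside 26.3%. The product for S phase and neuronal genes then lay within the interval of the share. In thinned RG cells, S phase and neuronal genes met in 5.89% beside a product of 7.26%. In the other EOMES groups the thinned shares lay on the same side of their products, but not always beyond counting error. They follow in the order of pairs above. Thinned late EOMES cells gave 2.93% beside 0.70%, 0.98% beside 2.15% and 8.59% beside 12.2%. Thinned dividing EOMES cells gave 25.8% beside 23.5%, 5.79% beside 7.63% and 13.4% beside 15.0%. None of the 3 marks was found in 27.9% of early IPs. The cells are those of 1 embryo and are not replicates, so these shares describe this sample.

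**Figure D5:**
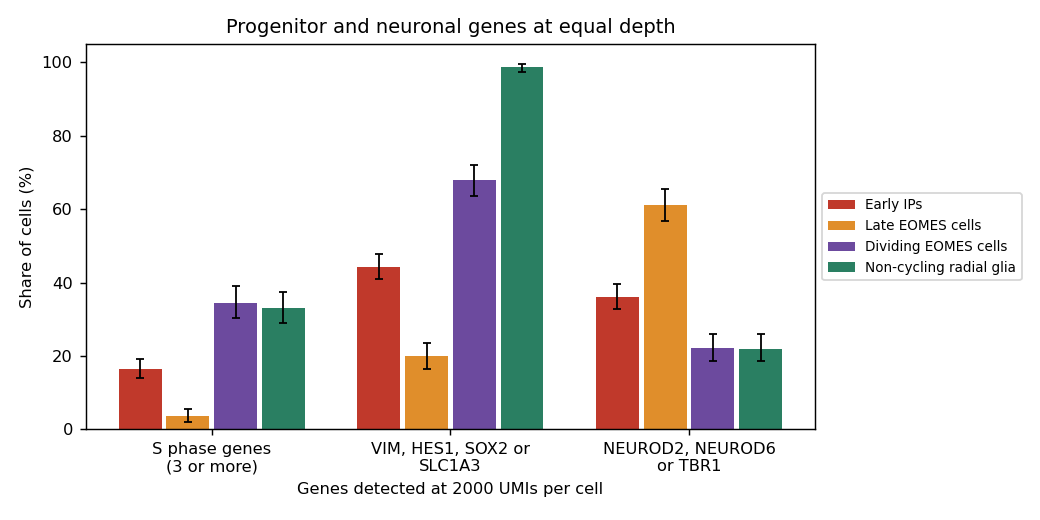
Share of cells (%) with S phase, RG or neuronal genes after thinning to 2000 UMIs, in 4 groups. Bars are both suffix sets and error bars exact 95% binomial intervals. The early IPs lie between late and dividing EOMES cells for each set of genes, and SOX2, HES1 and SLC1A3 helped to define the RG group.

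Markers of other cell types were counted in the early IPs. Of 13 inhibitory lineage markers 1, DLX6, was at 0, and the highest share among DLX1, DLX2, DLX5, GAD1 and GAD2 was 1.75%. SST was found in 10.2% of early IPs and in 6.88% of RG cells, against 27.9% of inhibitory lineage cells. Of 7 glial progenitor markers 1, CSPG4, was at 0. EGFR gave 31 UMIs (1.97% of early IPs) and OLIG2 gave 16, and the list summed to 27.3 CPM (16.8 and 31.0). Of 6 microglia markers CSF1R and CX3CR1 were at 0, which allows up to 0.329% of early IPs with a UMI and sets no limit on cells that express the gene. The list summed to 20.8 CPM (33.6 and 16.2), of which P2RY12 gave 54 of 76 UMIs. Of 10 vascular and meningeal markers 2 were at 0 and the list summed to 18.3 CPM (16.8 and 18.8). Of 7 Cajal-Retzius markers, cells that can also express EOMES, LHX5 was at 0, TP73 gave 1 UMI and RELN gave 137 in 4.05% of early IPs. Among immediate early genes, which respond to dissociation, FOS was at 44.8 CPM (59.8 and 39.5) against 391 (268 and 457) in RG cells, and JUN at 51.3 against 213, and 3 of 6 such genes were 2-fold lower (FOS, JUN and EGR1). Against late EOMES cells 1 of 7 such genes, JUNB, was past 2-fold, at 6.55 CPM against 23.3. Of all genes compared, 6.37% were 2-fold lower than in RG cells and 1.21% passed 2-fold against late EOMES cells. Mitochondrial UMIs had a median of 1.24% in the early IPs.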

How the data were processed

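Reads were processed by the authors in Cell Ranger, and the deposited values are raw UMI counts in 1 ferret table of 22008 genes and 23482 barcodes, the cell number the study's methods give. The submitters' processing notes also name StringTie and Seurat 3. The ferret genome build and annotation are not given in the sources used here. The methods kept cells between 750 and 5000 genes with mitochondrial transcripts under 10%, and 23241 barcodes had at least 750 genes. Early IPs held 3662179 UMIs, with 1139 to 16617 per cell. Counts were summed per group and scaled to 1000000 (CPM) with numpy 2.4.6, pandas 2.3.3, scipy 1.17.1 and matplotlib 3.10.9 under python 3.11.15. Shares have exact Clopper-Pearson intervals, CPM ratios exact conditional binomial intervals, and a share of 0 the limit of 3 cells.

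The members, gene lists and comparison groups were chosen with earlier results of these data known. For each comparison the 10 genes with the highest and the 10 with the lowest log2 ratio were named among those with a gene symbol and the same sign in both suffix sets, and listed genes by counts and examples. Of 272 listed genes 8 were not analysed here, and 1 gene that the rule names is not reported here. Of the 22008 gene names, 21910 matched the RefSeq table of ferret assembly ASM1176430v1.1. No doublet caller was used, and no doublets were removed. Thinning was without replacement, with a fixed seed. The ratio was tested on simulated data for early IPs against late EOMES cells (8057 genes). Of 97 genes set to change by 1.5 on the log2 scale 91.8% passed 2-fold, and of 103 set to change by 2 all 100% did, with the right sign in 100% of both. The simulated cells had no variation beyond counting and no gate, and only genes above a set level in late EOMES cells were changed. These figures therefore cover counting error only, and do not extend to low genes such as MCM3. Alternatives were other limits of the gate and of detection, 1 CPM added, other scalings, thinning and each suffix set alone.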

Additional observations from a re-analysis of the deposited data

How the results depend on the processing

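The share of 3.93% was 2.03% with at least 2 EOMES UMIs, 2.29% with at least 3 neurogenic genes, 2.47% with no mitotic gene and 2.61% in cells thinned before the gate, and 2.95% to 4.69% with 1 suffix set left out. At least 1000 genes gave 4.12%. Against late EOMES cells the 99 genes became 288 with 1 CPM added, 63 with detection in at least 10% of cells and 184 with at least 3 neurogenic genes, and 137 to 141 with 1 suffix set left out. With at least 2 EOMES UMIs 147 genes passed, 133 of them higher, and 43 were shared with the 99. In cells thinned before the gate 121 passed, of which 38.0% were higher, against 69.7% of the 99. With 1 CPM added, 1286 genes passed against RG cells and 837 against dividing EOMES cells. Cells thinned before the gate gave 622 against dividing EOMES cells, 38.6% of them higher, against 18.2%. With 1 suffix set left out the counts were 716 to 944 against RG cells and 437 to 524 against dividing EOMES cells. Of the genes named by rule, 3 changed sign under an alternative, all against late EOMES cells with at least 2 EOMES UMIs: NRXN3 at 0.12, GALNTL6 at 0.63 and GRM5 at 0.030. Values were then counted per gene and alternative against a range. It ran over the counting interval of the main ratio, widened where the main log2 ratio with 10 CPM added lay outside it. A further 64 values against late EOMES cells left this range, and 193 stayed within it. Against RG cells 93 left it and 167 stayed, and against dividing EOMES cells 87 left it and 173 stayed. The cause of these shifts was not tested. Leaving out cells with at least 2 inhibitory lineage genes, or cells with over 3 times the median UMIs of their suffix set, were alternatives chosen after seeing the data, and gave 89 and 111 genes against late EOMES cells, 796 and 846 against RG cells and 461 and 517 against dividing EOMES cells. No paired analysis was possible because the barcodes carry no replicate number and all cells come from 1 embryo. PPP1R17 gave 7 UMIs, too few to compare groups, and the cause of this low count was not tested.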
